A study of Bos taurus with 12 samples.

Results

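The classical complement pathway was followed through 9 genes: C1QA, C1QB, C1QC, C1R, C1S, C2, C4A, SERPING1 and C7. Members were found through the RefSeq transcript that the array annotation gives for each probe. Probes were matched for 8 of the 9 genes (all but C1R), and the 19 probes of these genes were among 43653 non-control probes, which carried symbols for 12787 genes. Total RNA came from mammary gland biopsies of 6 lactating Holstein cows, each sampled on day 0, when a lactation diet was fed ad libitum (CONT), and again on day 6 of a feed restriction (REST) that covered 50% of the net energy for lactation that each cow needed. Each of the 12 samples was hybridised to 1 one-colour (Cy3) array, and each slide held the CONT and REST arrays of 2 cows, slide 1 those of cows 1 and 2, slide 2 those of cows 3 and 4 and slide 3 the remaining ones. No cow gave a second biopsy without restriction, so an effect of time or of the first biopsy cannot be told apart from that of the diet. The series description counts 5 cows, and the methods of the study state that 1 Holstein cow was left out because of mastitis without naming it, whereas the labels name 6 cows with arrays.

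The classical pathway is the branch of complement that starts when C1q, a hexamer built from A, B and C chains, binds antibody on a target or certain other surfaces. C1q carries the serine proteases C1r and C1s. Activated C1s cleaves C4 and C2, whose fragments form the C3 convertase of this branch, and C3 cleavage leads on to the terminal pathway, in which C7 helps to insert the membrane attack complex. C1 inhibitor, encoded by SERPING1, removes C1r and C1s from C1. Most plasma complement proteins come from the liver, but C1q is made largely by macrophages and dendritic cells, and fibroblasts, endothelial and epithelial cells can make other components. In the gland, complement proteins reach milk and take part in the defence of the udder.

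Signals are given in log2 units relative to the 75th percentile of the array, so that 0 is the level of that percentile and a difference of 1 is a doubling. Levels are compared between arrays for one probe and not between probes. The arrays of slide 3 were dimmer than the others, with 75th percentiles of 73.2 to 117 intensity units against 252 to 390.0 on slides 1 and 2, and 41.9 to 48.0% of their spots well above background against 61.8 to 67.9%. Transcripts that define the secretory epithelium, CSN3 (kappa-casein), LALBA (alpha-lactalbumin) and ELF5, were well above background on 6 of 6 arrays of each group. Probes entered the test if the scanner software scored them well above background on 6 of 6 arrays in CONT, in REST or in both. The periods were compared within cows with limma, and a probe was called when its Benjamini-Hochberg adjusted p over all 19403 tested probes was under 0.1.

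All 8 matched genes had at least 1 tested probe, 16 probes in all, and the pathway did not move as one. The C1q A chain fell during restriction, while C4A, SERPING1 and C7 rose. With any probe, 4 of 8 genes were called, 3 higher and 1 lower in REST. Over all 7930 tested genes, 20.5% were called with any probe, 9.07% higher and 11.5% lower. With the probe of highest mean signal the same numbers of members were called, against 6.94% of all genes higher and 9.27% lower. Of the 16 probes, 10 were called (8 higher, 2 lower), against 16.0% of all tested probes (7.22% higher, 8.78% lower). The 8 include a SERPING1 probe (A_73_P394446) that entered the test through REST alone. The members were also chosen with earlier results of these data known, so all these counts are given as a description. With the probe of highest mean signal for each gene, 5 members had a higher and 3 a lower mean in REST, with a median change of 0.26 against -0.01 over all tested genes. CONT and REST ranges overlapped for each of the 16 probes, so that 0 were fully apart, against 2.25% of all tested probes. The calls rest both on comparing each cow with itself and on leaving dim probes out of the test. With the pairing kept but all 43653 probes tested, 0 of the 8 genes were called (limma adjusted p 0.145 for C1QA, 0.144 for C4A, 0.110 for SERPING1 and 0.181 for C7). Without the pairing by cow, 0 of the 16 probes were called by limma (4.31% of all probes were), although 2 had an unadjusted p under 0.05. With the cow as a random block, 3 of the genes were called (C4A, C7 and SERPING1), 1 fewer than with the fixed block, while over all genes the number called with any probe was 1861 against 1629.

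**Figure D1:**
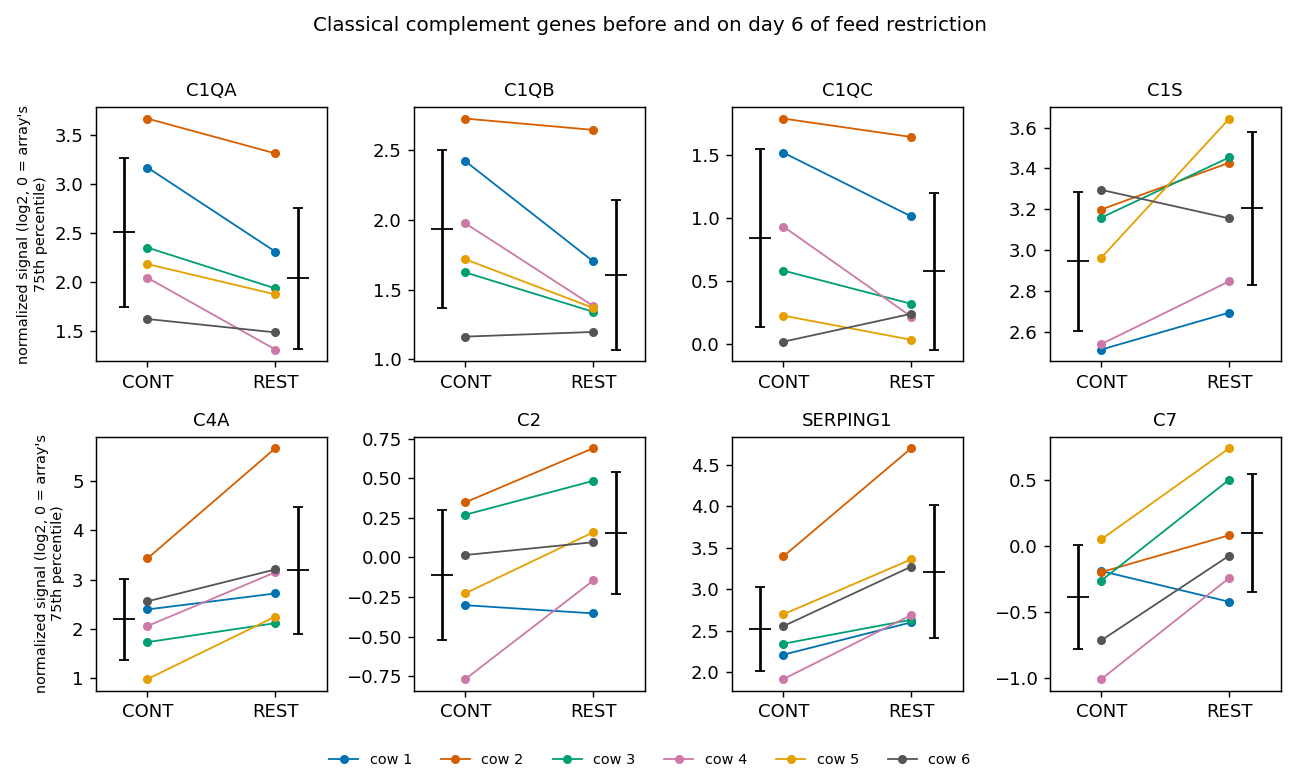
Normalized signal (log2, 0 is the 75th percentile of the array) of the 8 matched genes in CONT and REST, with the probe of highest mean signal for each gene, a line for each of the 6 cows, and mean ± SD (n = 6) in black. The scale differs between panels. C1QA falls in 6 of 6 cows, C4A and SERPING1 rise in 6 of 6, and cow 2 is the highest in both periods for the C1q chains, C4A, C2 and SERPING1.

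Among the subunits of C1, 1 of the 3 chains of the recognition part was called lower in REST. This was C1QA, the A chain, which was read by 2 probes. Its brighter probe (A_73_118275, NM_001014945) ranged over the 6 CONT arrays from 1.63 to 3.67 with a median of 2.27, and over the 6 REST arrays from 1.32 to 3.31 with a median of 1.91. Each cow lay lower in REST than in CONT, and cows 1 and 2, both on slide 1, were the highest in both periods. The mean went from 2.51 ± 0.76 to 2.04 ± 0.72 (SD, n = 6), which is a change of -0.47 (SE 0.11, limma adjusted p 0.0376), so that the signal in REST was 72.3% of that in CONT. By cow the change lay between -0.86 (cow 1) and -0.14 (cow 6), and the slide means were -0.61, -0.57 and -0.22. The dimmer probe of C1QA (A_73_P116901) fell by 0.57 (SE 0.11, limma adjusted p 0.0205), also in 6 of 6 cows. Without cow 4 the brighter probe was not called (-0.42, adjusted p 0.112) and the dimmer one was (-0.55, adjusted p 0.0712). Of all tested probes, 9.78% were lower in 6 of 6 cows and 7.76% were higher.

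The B and C chains had smaller changes that did not pass. C1QB (NM_001046599) had CONT values from 1.16 to 2.72 (median 1.84) and REST values from 1.20 to 2.64 (median 1.37). Its change was -0.33 (SE 0.11, limma adjusted p 0.101), with lower values in 5 of 6 cows, and with normexp it was -0.18 (adjusted p 0.281). C1QC (NM_001206396) had CONT values from 0.01 to 1.79 (median 0.76) and REST values from 0.03 to 1.64 (median 0.28), and its change was -0.27 (SE 0.12, limma adjusted p 0.189), again lower in 5 of 6 cows, and without slide 3 it was -0.41 (adjusted p 0.123). The cow without a fall was cow 6 for both chains, with 0.03 for C1QB and 0.22 for C1QC, and cow 6 also had the smallest fall of C1QA. Cows 1 and 4 had the largest falls for each of the 3 chains. In a gene table of a more recent bovine assembly than the one on which the arrays were annotated, C1QA and C1QC are next to each other and 1 further protein-coding gene lies between C1QC and C1QB. After centring each on its own mean, the lead probes of the chains differed from one another over the 12 arrays by a root mean square of 0.20 (C1QB and C1QC) to 0.29 (C1QA and C1QC).

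The 5 genes whose centred profile over the 12 arrays lay nearest to the mean of the C1q chains, among 7926 genes compared, were STEEP1, LAP3, C21H15orf40, PDZK1IP1 and NGP. Their root mean square difference from it was 0.29 to 0.36, where a flat profile would differ by 0.61 and the median gene differed by 0.65. Their REST minus CONT differences, which the choice by profile bears on and which are given with no test, were -0.44 for PDZK1IP1 and -0.21 to -0.01 for the other 4. The 2 arrays of a cow share the level of that cow, which enters this measure.

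Because C1q is made largely by macrophages, the markers of that cell type were set beside it. In biopsies, fewer cells of a type and less RNA per cell cannot be told apart. Of 14 macrophage markers, 10 had probes, all 10 were tested and 0 were called by limma. With any of their 12 probes, 4 had an unadjusted limma p under 0.05. With the probe of highest mean signal, these were TYROBP, SPI1 and CSF1R. With eBayes trended and robust, 2 were called (SPI1 and TYROBP). With the normexp background correction 2 were called with any probe (CSF1R and LYZ), and 1 with the probe of highest mean signal. The means of 6 were higher and of 4 lower in REST, with a median change of 0.13, which leaving out 1 cow moved to between 0.05 (without cow 5) and 0.23 (without cow 6). By gene the changes were 0.46 (TYROBP), 0.33 (CD163), 0.31 (SPI1), 0.27 (CSF1R), 0.17 (CD68), 0.09 (FCER1G), -0.03 (MSR1), -0.09 (CD14), -0.12 (LYZ) and -0.17 (AIF1). CD163 was above background on 4 of 6 arrays in CONT and 6 of 6 in REST, so it entered the test through REST alone, and the median of the 9 markers that passed on all arrays was 0.09. The summed linear signal of the 10 markers, in units of the 75th percentile, was 19.8 to 26.8 in CONT and 20.4 to 26.7 in REST, higher in REST in 2 of 6 cows. A sum of this kind weighs each probe by its own brightness, so that it is read within a list only. In cow 4, 1 of the 2, MSR1 went from -1.48 to 2.51. The dendritic and antigen presentation list, which takes in the other main source of C1q but is not limited to it, had 3 tested markers. BOLA-DRA (-0.17, limma adjusted p 0.318) and CD74 (-0.10, adjusted p 0.627) were not called, and CD83 was called higher (0.44, adjusted p 0.0315). By cow, the median change of these 3 markers was -0.53, 0.15, -0.06, -0.09, 0.04 and 0.08 for cows 1 to 6. The difference between C1QA and these markers was not itself tested.

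**Figure D2:**
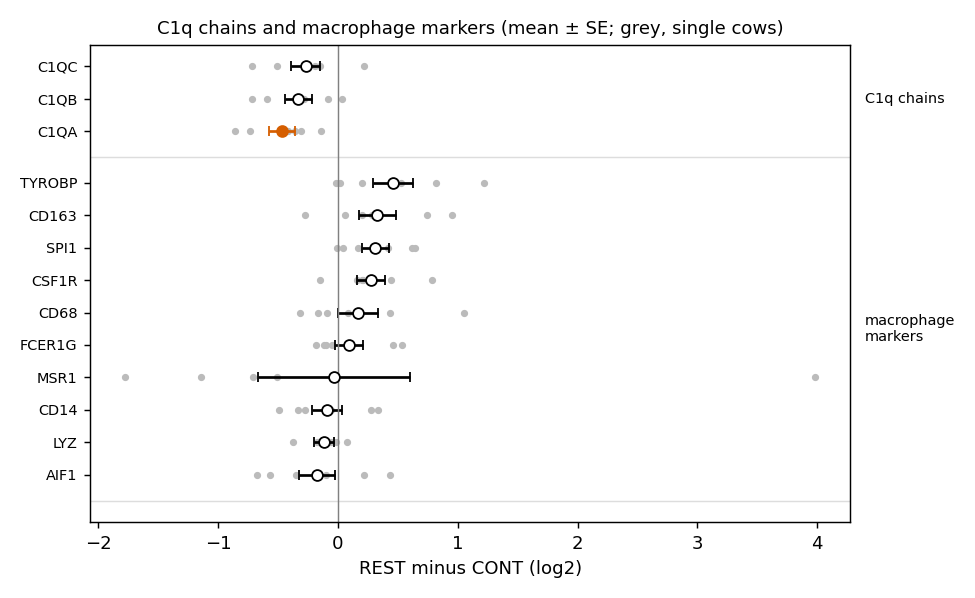
REST minus CONT (log2, x axis) for the C1q chains and 10 macrophage markers, 1 probe per gene, with mean ± SE as large symbols (filled where the adjusted p was under 0.1) and the 6 cows in grey. C1QA at -0.47 is the filled symbol, and 6 of the 10 markers have means above 0. MSR1 has the widest spread over cows.

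C1S, the protease that cleaves C4 and C2, was not called. Its brightest probe (A_73_P031981, NM_001076550) ranged from 2.51 to 3.29 in CONT (median 3.06) and from 2.69 to 3.64 in REST (median 3.29). The REST value was the higher one in 5 of 6 cows, cow 6 being the exception, and the change of 0.26 (SE 0.11, limma adjusted p 0.154) did not pass. The other probes of C1S changed by 0.18 (adjusted p 0.345) and 0.20 (adjusted p 0.496), each higher in 4 of 6 cows. These values moved with single cows, the first to 0.10 without cow 5 and the second (A_73_P256766) to 0.08 without cow 4, 0.10 without cow 5, 0.34 without cow 1 and 0.33 without cow 6, and with normexp the second was 0.13. With the normexp background correction the brightest probe changed by 0.37 and was called (adjusted p 0.0498).

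Of the substrates of C1s, C4A had the largest change among the members. C4 supplies the fragment that binds covalently to the target surface. Cattle can carry more than 1 near-identical C4 gene, so the signal may include other copies. The brightest probe of C4A (A_73_113565, NM_001166485) ranged from 0.98 to 3.43 in CONT (median 2.22) and from 2.11 to 5.67 in REST (median 2.93). The cow with the highest value was cow 2 in both periods, and in REST it stood well above the others, which lay between 2.11 and 3.21. The mean went from 2.19 ± 0.83 to 3.18 ± 1.30 (SD, n = 6), which is a change of 0.99 (SE 0.23, limma adjusted p 0.0380), or 1.99-fold. All 6 cows rose, by 0.33 (cow 1), 2.24 (cow 2), 0.39 (cow 3), 1.09 (cow 4), 1.27 (cow 5) and 0.65 (cow 6), and the slide means were 1.28, 0.74 and 0.96.

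The other tested probes of C4A were also called. A_73_P062244 changed by 0.72 (SE 0.23, limma adjusted p 0.0854), higher in 6 of 6 cows, and A_73_P355281 was 2.14-fold higher in REST (limma adjusted p 0.0604), with a rise in 5 of 6 cows. The first was not called with the random block (adjusted p 0.182) or without any 1 of cows 1, 2, 4, 5 and 6 (0.102 to 0.176), and the second was not called with normexp (0.71, adjusted p 0.117) or without cow 2, 4 or 5 (0.112 to 0.157). A further 2 probes of C4A were not tested, being well above background on 1 of 6 and 0 of 6 arrays in CONT and on 2 of 6 in REST for each. Without cow 2 the change of the brightest probe was 0.74 and was still called (adjusted p 0.0646), while the changes of the dimmer tested probes were 0.47 and 0.82 (adjusted p 0.141 and 0.137). Without cow 4 the brightest probe was not called (0.97, adjusted p 0.106).

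C2, whose fragment is the catalytic part of the convertase, had 1 tested probe (A_73_101342, NM_001034492). It ranged from -0.77 to 0.35 in CONT (median -0.11) and from -0.35 to 0.69 in REST (median 0.13). REST was higher in 5 of 6 cows, but the change of 0.27 (SE 0.10, limma adjusted p 0.129) did not pass. The second probe of C2 was well above background on 4 of 6 arrays of each group and was not tested. C2 and C4A lie near each other in the gene table, with 5 protein-coding genes between them.

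SERPING1, the inhibitor of C1, rose with each of its 4 probes. Its brightest probe (A_73_109408, NM_174821) ranged from 1.92 to 3.40 in CONT (median 2.45) and from 2.60 to 4.70 in REST (median 2.98). Each cow was higher in REST, by 0.29 (cow 3) to 1.30 (cow 2). The mean went from 2.52 ± 0.51 to 3.21 ± 0.80 (SD, n = 6), which is a change of 0.69 (SE 0.13, limma adjusted p 0.0212), or 1.61-fold, and the slide means were 0.85, 0.53 and 0.69. The 4 tested probes changed by 0.62 to 0.74, each was called, and each was higher in 6 of 6 cows. The dimmest of them (A_73_P394446) passed the background criterion in REST and, in CONT, on 4 of 6 arrays, and with normexp its change was 0.17 (adjusted p 0.408). With normexp A_73_P397871, the probe with the change of 0.74, changed by 0.41 (adjusted p 0.0563). A_73_P295276 lost its call with normexp (0.35, adjusted p 0.177), with the random block (adjusted p 0.116) and without cow 2, 3, 4 or 5 (adjusted p 0.101 to 0.188), and its change without cow 2 was 0.44. With each cow left out in turn, the brightest probe was called 6 of 6 times, with changes of 0.57 to 0.77.

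The 5 genes nearest to the mean centred profile of the SERPING1 probes, a comparison added after its values had been seen, were GIMAP5, IFI30, CXCL14, GIMAP4 and CXCR6, with root mean square differences of 0.29 to 0.36 against 0.68 for a flat profile and 0.72 for the median of 7928 genes. Their REST minus CONT differences were 0.27, 0.53, 0.73, 0.39 and 0.61 in that order. The profile of SERPING1 holds its own rise, so genes chosen for likeness to it tend to share that direction, and these differences are a description with no test.

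C7, the member that acts after C5 cleavage, was read by 1 probe (A_73_110571, NM_001045966). It ranged from -1.005 to 0.05 in CONT (median -0.23) and from -0.42 to 0.74 in REST (median 0.01). Cows 3, 4, 5 and 6 rose by 0.64 to 0.76, cow 2 by 0.28, and cow 1 changed by -0.23. The mean went from -0.38 ± 0.39 to 0.10 ± 0.44 (SD, n = 6), which is a change of 0.48 (SE 0.14, limma adjusted p 0.0667.) On slide 1 the mean change was 0.02, against 0.76 on slide 2 and 0.66 on slide 3. The call of C7 was lost without any 1 of cows 2 to 6, with changes of 0.43 to 0.53 and adjusted p of 0.119 to 0.174. With normexp its change was 0.30 (adjusted p 0.0862).

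**Figure D3:**
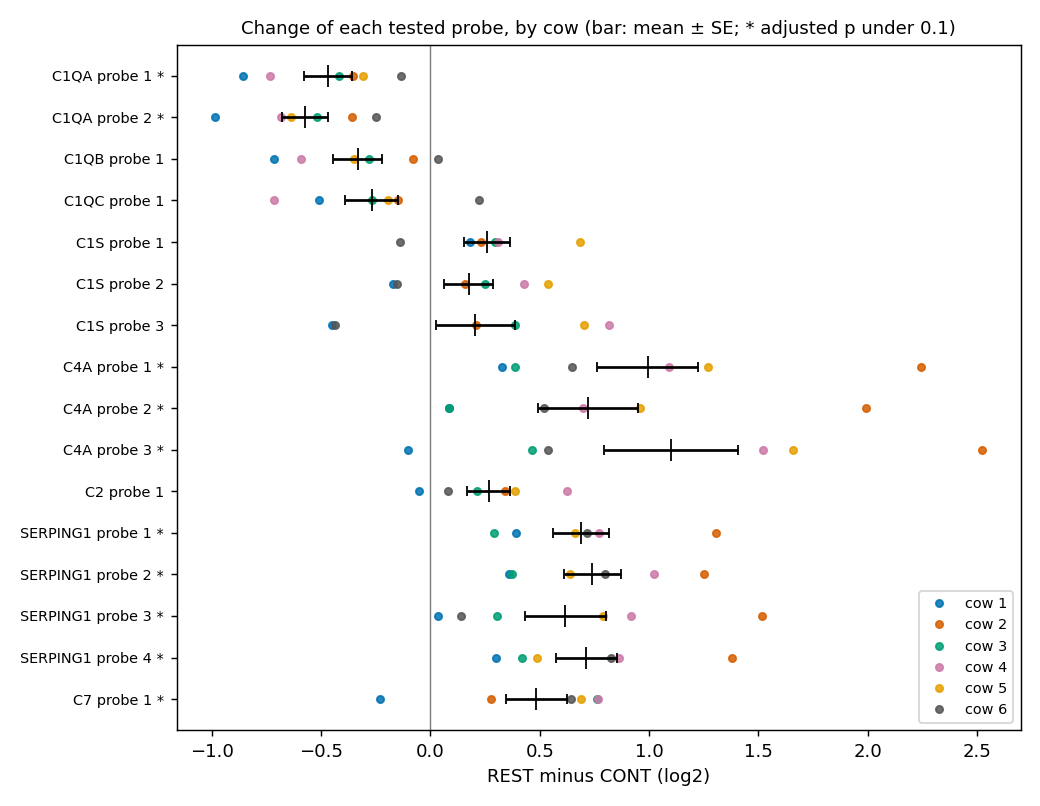
REST minus CONT (log2, x axis) for each of the 16 tested probes, ordered by role and, within a gene, from the brightest probe down, with a point for each cow and a black bar for mean ± SE. An asterisk marks an adjusted p under 0.1. The C1QA probes lie left of 0 and the SERPING1 probes right of it in 6 of 6 cows, cow 6 lies right of 0 for C1QB and C1QC, and cow 2 is farthest to the right for C4A and SERPING1.

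Cow 2 stood apart in these genes. It had the highest signal of its group for 12 of the 16 tested probes in CONT and for 12 of 16 in REST, whereas it was highest for 14.5% and 16.4% of all tested probes. For 7 of 7 tested probes of C4A and SERPING1 it also had the largest change. Probes of 1 gene share their target, so these counts are not independent. The acute phase gene SAA3, made by the mammary gland itself, was at 6.26 in cow 2 in CONT, against 0.29 to 3.63 in the other 5 cows, and at 7.35 in REST, against 2.02 to 4.65. Its largest change was in cow 1, at 4.35. Its part in the levels of the members was not tested. Without cow 2, C1QA (-0.49, adjusted p 0.0932), C4A (0.74, adjusted p 0.0646) and SERPING1 (0.57, adjusted p 0.0506) were still called by limma. Without slide 3, C1QA (-0.59, adjusted p 0.0639) and SERPING1 (0.69, adjusted p 0.0889) were called and C4A (1.01, adjusted p 0.119) and C7 (0.39, adjusted p 0.243) were not.

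The rest of the complement system was grouped by role, with 1 probe per gene. Of C3 and the genes of the alternative pathway, 6 were tested and 4 were called, all higher in REST, with a median change of 0.65. C3, on which all branches converge, rose by 1.62 (SE 0.18, limma adjusted p 0.00465), CFB, the alternative counterpart of C2, by 0.84 (SE 0.20, adjusted p 0.0411), and CFD, the protease that cleaves factor B, by 0.78 (SE 0.13, adjusted p 0.0152), each in 6 of 6 cows. The fourth was CFI, named after its value was seen, which inactivates C4b and C3b (0.51, adjusted p 0.0501). Its probe was above background on 4 of 6 arrays in CONT and 6 of 6 in REST and so was tested through REST alone. With all arrays required, 5 genes of this list were tested and 3 called. With the random block, without cow 2 or with all dim probes tested, 2 of the 6 were called by the lead probe, and CFB was not called in any of these. Of the regulators, 4 were tested and 2 called: CLU, which holds terminal complexes off membranes, rose by 0.99 (SE 0.15, adjusted p 0.0103) and CD46, a cofactor for factor I, by 0.29 (SE 0.10, adjusted p 0.0965). Of the lectin pathway, in which MASP enzymes take the place of C1r and C1s, 3 genes were tested and 0 were called. Their median change was -0.23 (-0.09 over the 2 that passed on all arrays, -0.14 without cow 3). With normexp it was -0.12, and 1 of the 3 was called lower. Of the complement receptors 2 were tested, and 0 were called. Their median change of 0.08 turned to -0.04 without cow 5 and was 0.19 without cow 4. Genes of the terminal pathway after C7 or at its start (C5, C6, C8A, C8B and C9) had no tested probe (0 of 5). At an unadjusted p under 0.05 there were 8 genes in these other lists together, against 6 called.

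**Figure D4:**
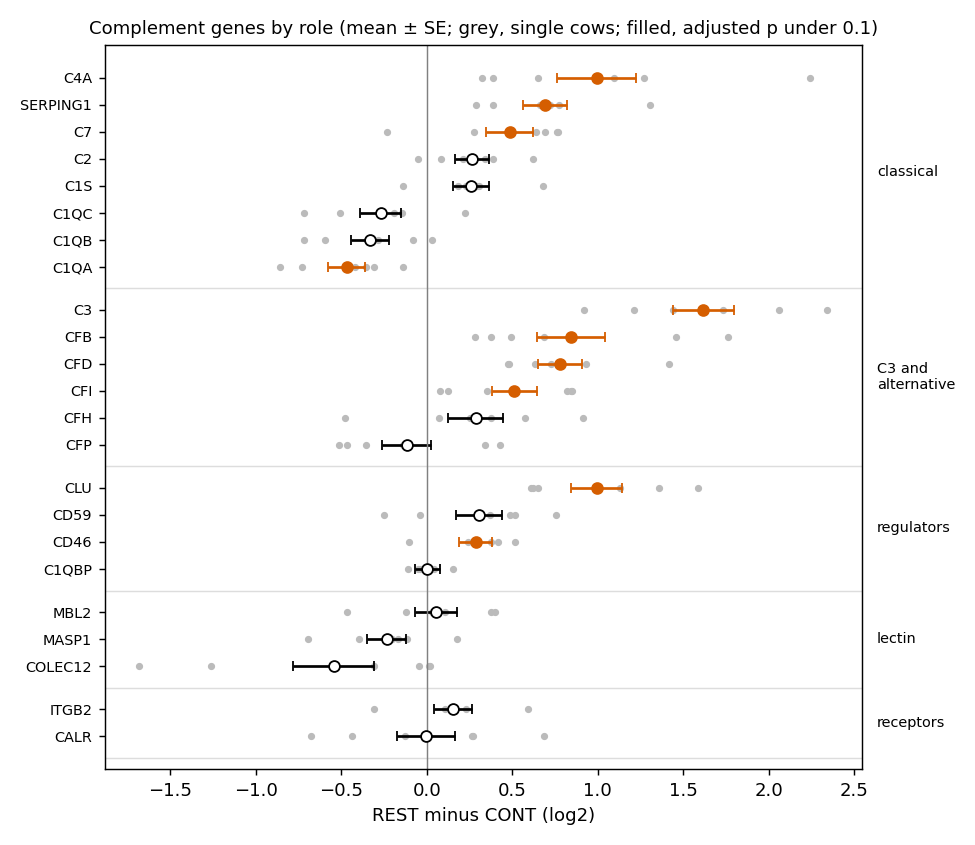
REST minus CONT (log2, x axis) for tested complement genes grouped by role, 1 probe per gene, with mean ± SE as large symbols (filled where the adjusted p was under 0.1) and the 6 cows in grey. The C1q chains lie below 0, while called members of the classical group (C4A 0.99, SERPING1 0.69, C7 0.48) and of the C3 group lie above it.

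Markers of other cell types that could supply complement transcripts were described in the same way. Of 11 fibroblast markers, all tested, 4 had higher and 7 lower means, with a median of -0.16 and 0 called with the lead probe (1 lower with any probe). Without cow 2 the median was -0.03, without cow 1 -0.06 and without cow 6 -0.08, while without cow 3 it was -0.32 with 2 markers called lower. The summed signal of all 11 was 44.0 to 78.0 in CONT and 35.1 to 93.7 in REST, higher in 3 of 6 cows. Of 8 tested endothelial markers 2 were called higher and 1 lower (median 0.12), with sums of 30.0 to 42.8 and 35.1 to 45.4, higher in REST in 6 of 6 cows. CLDN5 (0.74) and VWF (0.54) were also higher in 6 of 6, while ENG (-0.32) was lower in 5 of 6. The lower call in this list was lost with normexp and without any 1 of cows 1, 2, 4, 5 and 6. Among 7 tested luminal epithelial markers the numbers with the lead probe were also 2 and 1 (median 0.12, or 0.25 without cow 5 and 0.005 without cow 1), with sums of 2047 to 2756 and 1695 to 2256, higher in REST in 0 of 6 cows. CSN3 (-0.28) and LALBA (-0.20, not called) were lower in 6 of 6 cows. KRT8 (0.72) was higher in 6 of 6, and KRT18 (0.52) and EPCAM (0.33, not called) in 5 of 6. With 1 cow left out in turn, 1 or 2 luminal markers were called higher, and the lower call stayed only without cow 5. With normexp 3 were called higher and 0 lower. Of 8 tested lymphocyte markers 2 were called higher and 0 lower (median -0.06, or 0.01 without cow 4), with sums of 28.3 to 35.4 and 28.6 to 38.3, higher in 2 of 6 cows. CD8A, 1 of the 2, was above background on 5 of 6 arrays in CONT and was tested through REST alone, and with all arrays required 1 marker was called. Neutrophil markers had 2 tested genes and 0 called, and S100A8 was well above background on 3 of 6 arrays in each group. Hepatocyte markers had 2 tested genes and 0 called, and ALB stood well above background in 0 of 6 biopsies in CONT and 2 of 6 in REST. Of 6 tested acute phase and mastitis genes, 6 had higher means and 1 was called (LTF, lactoferrin, 0.45, adjusted p 0.0507). PTX3 and TNF each missed the background criterion on 1 array, so 4 remained with all arrays required, and 0 were called without cow 1, 2 or 4. SAA3 changed by 1.15 (SE 0.50, adjusted p 0.177). Of 10 tested interferon-stimulated genes 0 were called higher and 1 lower (IFI27), with a median of 0.12 (0.07 without cow 1, 0.21 without cow 4). Without cow 3, and also with normexp, 2 were called higher. Without slide 3 the median was 0.03 and 2 were called lower. The part of these cell types in the changes of C4A, SERPING1 and C7 was not tested.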

How the data were processed

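The study measured mammary RNA of 12 samples (6 CONT, 6 REST) on bovine oligonucleotide arrays. Per the file headers, the authors extracted spot intensities with Agilent Feature Extraction, and the deposited intensities are background-subtracted and detrended within an array, without scaling between arrays. The deposited series table held the same intensities (0 cells differed). Here, the log2 of the intensity was taken relative to the 75th percentile over non-control spots, as in the methods of the study. Marked spots (1 to 13 per array) were left out, repeat spots averaged, and symbols taken through RefSeq transcripts, which named 62.2% of probes. REST was compared with CONT with the cow as a block in limma 3.58.1 (R 4.3.3), tested on simulated data, with Benjamini-Hochberg adjustment over all tested probes and a threshold of 0.1. The methods state no pairing. The labels give the animal of each sample, and deviations from group means of the 2 arrays of a cow correlated across probes with r of 0.36 to 0.57, against -0.33 to 0.13 between cows. The normexp alternative used the median spot signal, since no mean signal is in the files. The 9 members and all gene lists were chosen with earlier results of these data known. The text names all members, C3, at most 3 called genes of each other complement list by size of change, the markers needed to describe a list, and the 5 nearest profiles. The number of arrays limits precision. The p-values of the paired fit set a change against its spread over these 6 cows, which limma moderates with that of all tested probes. Tests are two-sided. Further lists (dendritic and antigen presentation, myoepithelial, adipocyte and erythrocyte markers) had 1 (higher), 1 (lower), 1 (lower) and 0 called genes. The 2 tested erythrocyte markers changed by -0.42 and -0.33. Among probes well above background on all arrays 2 of them were called lower, and with the random block 1.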

Additional observations from a re-analysis of the deposited data

Results flagged for a closer look

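For the 16 tested probes of the members and for 2 measures of array quality (the 75th percentile and the share of spots well above background), the distance from the highest or lowest array of a group of 6 to its neighbour was taken as a share of the group's range. In 36 such groups of values the ratio exceeded Dixon's 95% critical value 5 times, where chance gives about 1 in 20 (1.8 of 36). Each of the 5 was the REST array of cow 2, and probes of 1 gene are not independent. For C4A the ratios were 0.693 (A_73_113565, 5.67 against 2.11 to 3.21 in the other cows), 0.660 (A_73_P062244, 4.73 against 1.53 to 2.62) and 0.679 (A_73_P355281, 2.81 against -0.81 to 0.35). For SERPING1 the ratio was 0.638 (A_73_109408, 4.70 against 2.60 to 3.36), and for C1QB it was 0.651 (2.64 against 1.20 to 1.70). The causes were not tested.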

How the results depend on the processing

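Over 184 values of the 8 member genes under the alternatives, 0 changed the sign of a called change. Of the changes that were not called, that of C1QC changed sign within slide 3 (0.015, against -0.27). For the 4 called genes 26 values lost the call, and for the 4 others 5 gained one. The remaining 152 stayed on their side of the threshold or, without a test, moved by less than 1 SD over cows, and 1 moved by more (C7 within slide 1, 0.0232). The pairing and the filter on dim probes each decided all 4 calls. Without the cow as a replicate block, with the slide as a block instead, under the methods' t-test (run here unmoderated and unpaired, which the methods do not state), and with all dim probes tested, 0 of the 8 genes were called, against 4, and 2, 2, 0 and 6 genes had an unadjusted p under 0.05. All probes called were then 836, 1898, 722 and 388, against 3104, and other complement genes 3, 3, 2 and 5, against 6. The changes under these settings were again -0.47 (C1QA), 0.99 (C4A), 0.69 (SERPING1) and 0.48 (C7), since only the error or the number of probes changes. Their adjusted p without pairing were 0.567, 0.380, 0.327 and 0.280. The random block lost C1QA (-0.47, adjusted p 0.231) and, of the other complement genes, CFB.

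C1QB (-0.33) was called among probes well above background on all arrays (adjusted p 0.0879) and with trended, robust eBayes (0.0743), C1S with normexp (0.37), and both without cow 6 (-0.40 and 0.34). Without slide 3, an alternative chosen after seeing the data, 2 members were called, and C4A (1.01) and C7 (0.39) were not. Macrophage markers called with any probe were 2 with normexp and 2 with trended, robust eBayes, against 0. With 1 cow left out in turn, 2 to 5 members and 1045 to 3252 probes were called (2 members without cow 4, 5 without cow 6), and the changes ranged from -0.53 to -0.39 (C1QA), -0.40 to -0.25 (C1QB), -0.37 to -0.18 (C1QC, the latter without cow 4), 0.19 to 0.33 (C2), 0.17 to 0.34 (C1S), 0.74 to 1.13 (C4A) and 0.43 to 0.63 (C7). The causes were not tested. With normexp, 46.0% of called probes were lower, against 54.9%. The dim arrays of slide 3 limit what can be tested: without it 26901 probes passed the filter, against 19403.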
